A study of Arabidopsis thaliana with 4 samples.

Results

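The 8 Arabidopsis loci described here encode the ABF/ABI5 branch of the group A basic leucine zipper (bZIP) transcription factors: ABF1 (AT1G49720), ABF2 (AT1G45249, also called AREB1), ABF3 (AT4G34000), ABF4 (AT3G19290, also called AREB2), ABI5 (AT2G36270), AREB3 (AT3G56850), EEL (AT2G41070) and DPBF2 (AT3G44460). They were taken by locus from the family, with earlier results of these data known. They are 8 of 34261 genes that the array measures. All 8 were on the array, with 14 probes in all. The samples were whole seedlings of the wild type Col-0 (2 replicates) and of the mutant sahy9-1 (2 replicates), all grown for 10 days and then kept for 1 day on 150 mM NaCl. The mutant carries a T-DNA in an exon of APUM23, which encodes a Pumilio RNA-binding protein of the nucleolus, and it is 1 allele of that gene. Every array was from salt-treated plants, so the values compare genotypes under salt and hold no measure of the response to salt itself. RNA of each sample was labeled with Cy3 and put on a separate Agilent array, where the brightness of a spot of short DNA probes reads the amount of a transcript. In whole seedlings, fewer cells that express a gene and less RNA per cell cannot be told apart.

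These proteins are the main DNA-binding factors of the abscisic acid (ABA) pathway. When ABA binds its PYR/PYL receptors, clade A protein phosphatases are held back, SnRK2 kinases become active, and the kinases phosphorylate the bZIP proteins. The bZIP proteins then bind as dimers to the ABA-responsive element (ABRE) in the promoters of dehydration and salt genes. ABF1, ABF2, ABF3 and ABF4 are best known from vegetative tissue under drought, cold and salt. ABI5, EEL, DPBF2 and AREB3 are best known from seeds, and ABI5 also holds back the growth of young seedlings when ABA is present.

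The brighter of the 2 probes of APUM23 had intensities of 1858 and 2037 in the Col-0 arrays and of 329 and 247 in the sahy9-1 arrays. The signal was lower in both mutant arrays and well above background on all 4 arrays. Between 74.6% and 76.3% of the 43803 gene spots of an array were well above background, the median intensity lay between 491 and 598, and 0 gene spots were saturated. The levels given here are log2 intensities minus the 75th percentile of that array, and fold changes are sahy9-1 against Col-0. Because probes differ in brightness, levels of different genes were not compared. The tissue markers fit the labeled whole seedlings, since all 6 root markers and all 6 leaf markers were well above background on all 4 arrays. Summed over the list, as multiples of the same 75th percentile, the root markers gave 2.80 and 2.41 in Col-0 and 2.53 and 2.54 in sahy9-1, so that the genotypes overlapped. The leaf markers gave 235 and 249 in Col-0 and 206 and 216 in sahy9-1, lower in both mutant samples. Such a sum rests mostly on the brightest probes. RBCS1A, RCA, CA1 and CAB2 had lower means in sahy9-1, while MYB60 and FAMA had slightly higher ones. None of these differences passed the test described below. The 7 seed markers summed to between 0.0550 and 0.0733 on the 4 arrays, with overlap between the genotypes. Of these, FUS3, OLEO1 and CRA1 were well above background on all 4 arrays, LEC2, SESA1 and SESA3 on 1, and LEC1, a regulator of embryo identity, on 0.

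Of the 8 genes 7 were bright enough to test, and 5 of these differed between the genotypes. ABF1, ABF2, ABF3 and EEL were down-regulated in sahy9-1 and ABI5 was up-regulated. EEL reached the intensity of 100 required for the test on both arrays of Col-0 only, the genotype in which it was higher, so that its place in this count depends on the filter. ABF4 and AREB3 did not pass the test. A gene passed when its adjusted P was 0.05 or less in limma, whose linear models borrow the spread of all genes, with Benjamini-Hochberg adjustment over the 21732 genes tested. That rule called 49.4% of all genes tested, 25.4% as higher and 24% as lower, so that a count of 5 in 7 is no result about the family by itself. The median log2 fold change was -0.48 over the 7 genes and -0.0040 over all genes, and the median size of a change over all genes was 0.28. The median of the 7 genes is the value of EEL itself, so that it depends on the filter too. None of the 7 genes also changed at least 3-fold, the threshold of the study, which 3.24% of all genes tested did (1.66% higher and 1.59% lower). The count at 3-fold was 0 by limma with or without adjustment of the P and 0 by the methods' t-test. The largest change of the 7 genes was 2.17-fold (ABF2), so this count is 0 whatever the rule on the P. Without the fold threshold an unadjusted P under 0.05 was reached by 6 of the 7 genes in limma and by 4 in the methods' t-test. After adjustment the methods' t-test called 0 of the 7 genes. The genotypes did not overlap between arrays for 6 of the 7 genes, as for 80.3% of all genes tested.

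**Figure D1:**
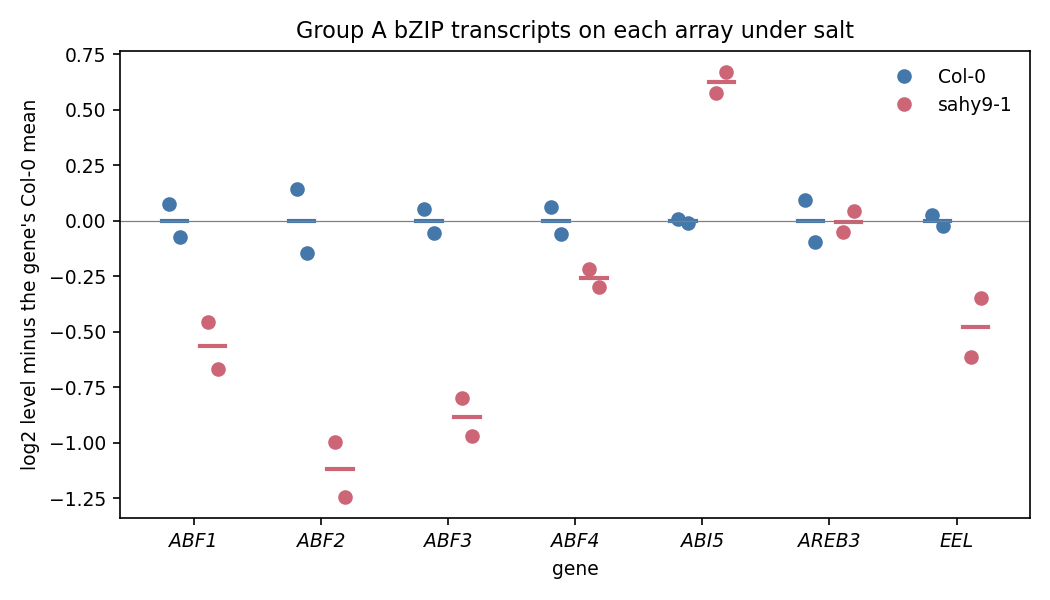
Log2 level of the 7 measured genes on each of the 4 arrays, with the Col-0 mean of each gene set to 0; points are arrays and bars are genotype means (n = 2 each). The sahy9-1 arrays lie below both Col-0 arrays for ABF1, ABF2, ABF3, ABF4 and EEL, above them for ABI5, and among them for AREB3.

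ABF2 showed the largest change of the 7 genes. ABF2 activates drought and sugar-responsive genes in vegetative tissue. Its intensity was 9535 and 7461 in the Col-0 arrays and 5068 and 3786 in the sahy9-1 arrays. The mean level was 1.60 ± 0.20 (SD, n = 2) in Col-0 and 0.48 ± 0.17 (SD, n = 2) in sahy9-1. This 2.17-fold decrease is -1.12 on the log2 scale, with a standard error of 0.14 and a limma adjusted P of 0.00555. The gap of 0.85 between the lowest Col-0 and the highest sahy9-1 array was larger than the distance between replicates of either genotype. Only 3.52% of the genes tested had a lower log2 fold change than ABF2. A second probe, designed on another transcript of the gene, gave -1.25 (standard error 0.13).

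ABF3, whose overexpression makes plants tolerant to drought, fell almost as far. The probe with the highest signal had intensities of 14249.8 and 12637 in Col-0 and of 9260 and 7270 in sahy9-1. Both mutant arrays were below both wild-type arrays. The mean level was 2.27 ± 0.077 (SD, n = 2) in Col-0 and 1.39 ± 0.12 (SD, n = 2) in sahy9-1, a 1.85-fold decrease. On the log2 scale the change was -0.88, with a standard error of 0.091 and a limma adjusted P of 0.00411. The other 2 probes of ABF3 gave log2 fold changes of -0.82 and -0.92. All 3 probes of the gene thus fell by nearly the same amount, although 1 of them was designed on a different transcript from the other two.

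ABF1 is known for its induction by cold and ABA. Its intensities were 3555 and 3067 in Col-0 and 2885 and 2206 in sahy9-1, and the genotypes did not overlap after scaling. The mean level was 0.25 ± 0.11 (SD, n = 2) in Col-0 and -0.31 ± 0.15 (SD, n = 2) in sahy9-1. ABF1 decreased 1.48-fold (log2 fold change -0.56 with a standard error of 0.11, limma adjusted P = 0.0138), and a second probe gave -0.48. The call on ABF1 did not hold without Col-0 replicate 1 (log2 fold change -0.49, limma adjusted P = 0.0525) or without sahy9-1 replicate 2 (-0.46, limma adjusted P = 0.0702).

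ABF4 differed least among the ABF genes. Like ABF2 and ABF3 it acts in vegetative ABA responses, and its intensities were 15138 and 13291 in Col-0 and 14646 and 12272 in sahy9-1. After scaling, the levels were 2.41 and 2.29 in Col-0 and 2.14 and 2.06 in sahy9-1, lower in both mutant arrays. The difference between the ABF4 means was -0.26 (95% interval -0.46 to -0.050), and its limma adjusted P of 0.0501 lay at the threshold. The second ABF4 probe gave -0.14, with a limma adjusted P of 0.226 in a fit over 28946 probes. As a ratio of sahy9-1 to Col-0 the interval of the first probe ran from 0.726 to 0.966.

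**Figure D2:**
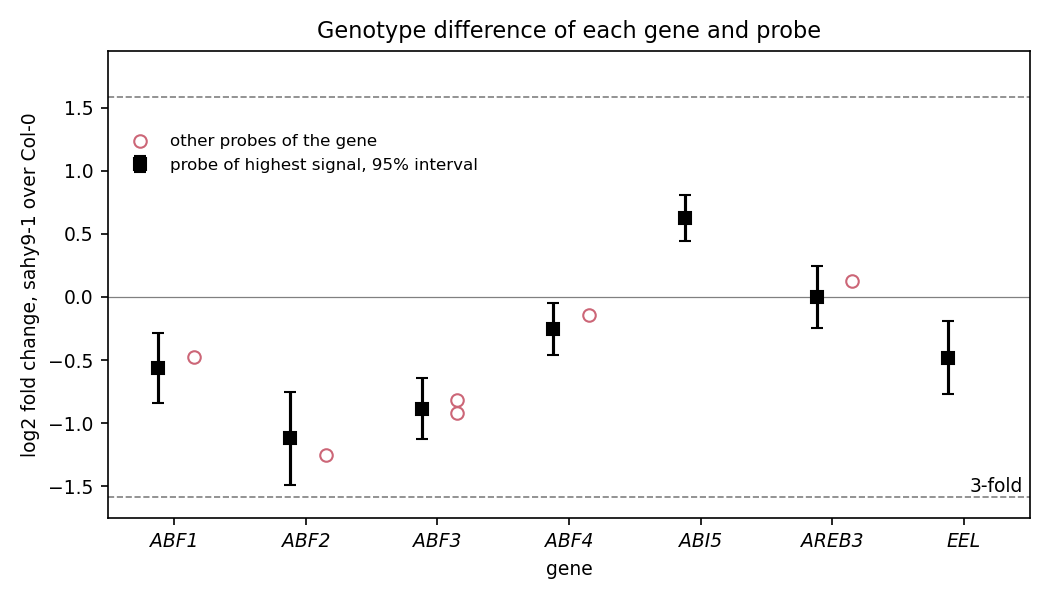
Log2 fold change of sahy9-1 over Col-0 for each gene: squares are the probe of highest signal with the 95% interval of the limma fit, open circles the other probes of the gene, and dashed lines mark 3-fold. The probes of ABF1, ABF2 and ABF3 all lie below 0, the single ABI5 probe lies at 0.62 and the 2 probes of AREB3 lie on either side of 0.

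ABI5 was the only one of the 7 genes that rose. ABI5 is the factor through which ABA arrests germination and early seedling growth. Its intensities were 426 and 402 in the Col-0 arrays and 740 and 700 in the sahy9-1 arrays, so that both mutant arrays lay far above the wild type. The level went from -2.75 ± 0.013 (SD, n = 2) to -2.12 ± 0.066 (SD, n = 2). ABI5 thus increased 1.54-fold, with a 95% interval from 1.36-fold to 1.75-fold and a limma adjusted P of 0.00447, and the log2 fold change of 0.62 had a standard error of 0.068. Among all genes tested 89.4% had a lower log2 fold change. With normexp, another background correction, used here with an offset of 50 added to the signal, the log2 fold change was 0.25 and the limma adjusted P 0.437. That correction put the background of Col-0 replicate 2 at -290, against 7.92 to 16.5 on the other 3 arrays. With its parameters fitted without spots of flagged background, an alternative chosen after seeing the data, the background of that array was 14.4, the log2 fold change of ABI5 was 0.53 and its limma adjusted P was 0.00468.

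EEL, a factor that competes with ABI5 for the promoter of the seed gene EM1, was near the lower limit of what was tested. Its intensities were 131 and 121 in Col-0 and 98.4 and 105 in sahy9-1, and the single probe was well above background on all 4 arrays. The mean level was -4.47 ± 0.036 (SD, n = 2) in Col-0 and -4.95 ± 0.19 (SD, n = 2) in sahy9-1. EEL was 1.40-fold lower (log2 fold change -0.48 with a standard error of 0.11, limma adjusted P = 0.0227). It passed the filter through Col-0 alone. With a filter on spots well above background, which EEL passed in both genotypes, the limma adjusted P was 0.0345, and without a filter it was 0.0804. With normexp the log2 fold change was -1.0 and the limma adjusted P 0.199. The limma adjusted P of EEL was 0.0827 without Col-0 replicate 1, 0.0596 without Col-0 replicate 2 and 0.0874 without sahy9-1 replicate 1.

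AREB3, which is expressed in the maturing embryo, did not pass the test. The intensities were 594 and 499 in Col-0 and 631 and 596 in sahy9-1, and after scaling the arrays of the genotypes overlapped. On the log2 scale the difference was -0.0037 (95% interval -0.25 to 0.24), and the second probe gave 0.13. As a ratio of sahy9-1 to Col-0 the interval of the first probe ran from 0.842 to 1.18. DPBF2, a regulator of seed maturation also called bZIP67, had intensities of 8.35, 4.79, 5.37 and 4.91 on the 4 arrays. None of these was well above background, so that no fold change is given.

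The ratio of one gene to another on the same array does not depend on how the arrays were scaled. Relative to ABF4, which was picked for this after its value was seen, ABI5 was higher in sahy9-1 by 0.79 and 0.97 on the log2 scale than in the Col-0 mean. The Col-0 arrays lay at -0.052 and 0.052 around that mean. On the same scale ABF2 was lower, at -0.78 and -0.95, and ABF3 at -0.58 and -0.68. ABF1 lay at -0.24 and -0.37. AREB3 lay at 0.17 and 0.34, and EEL at -0.40 and -0.050, the latter close to the Col-0 arrays at -0.036 and 0.036. After scaling, ABF4 itself lay at -0.22 and -0.30 in sahy9-1 from its own Col-0 mean. Each ratio to ABF4 is thus higher in sahy9-1 by that amount than the scaled change of the gene, that of AREB3 included. These ratios are a description and were not tested, since the reference was picked after its value was seen.

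**Figure D3:**
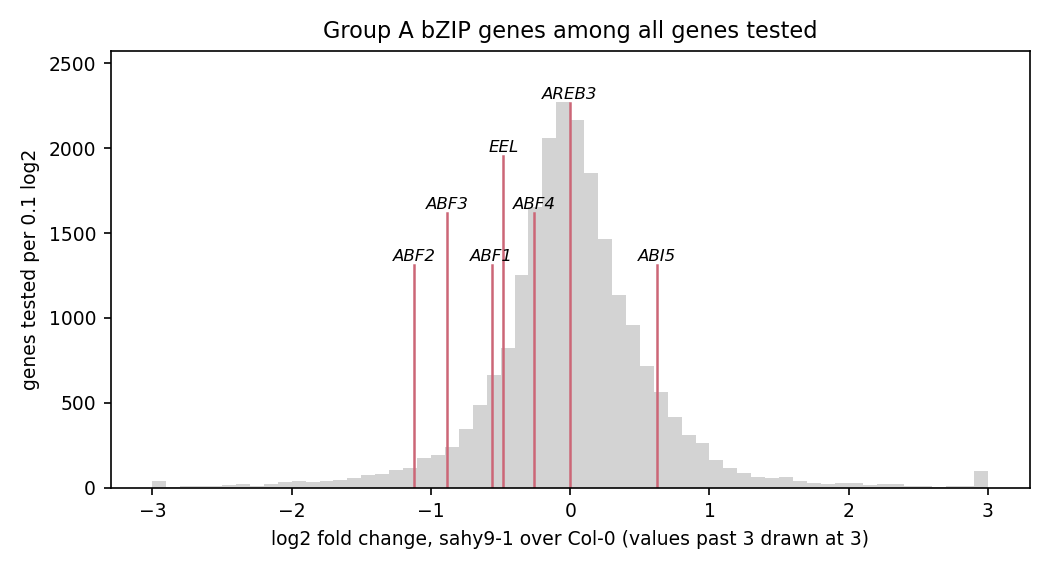
Histogram of the log2 fold change of the 21732 genes tested, in steps of 0.1, with a line at the value of each bZIP gene (the height of a line has no meaning). ABF2 and ABF3 lie in the lower tail, ABI5 at 0.62 in the upper part and AREB3 at the middle.

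By pattern over the 4 arrays, each gene centered on its own mean, the 3 genes nearest to ABI5 were AT1G29465, ZEU1 (thymidylate kinase) and APO4, at Euclidean distances of 0.022 to 0.032 on the log2 scale. There were 171 genes within 0.1 of ABI5, so this nearness is common. ABF2 had 27 genes within 0.1. The nearest were OZF1, a zinc finger protein, AT1G06420 and COR413-PM1, a cold-regulated membrane protein, at 0.043 to 0.050.

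Of the 5 other group A bZIP genes 2 were bright enough to test, and both were lower, where 24% of all genes tested were. This count was 1 without either single Col-0 replicate, and 0 without either single sahy9-1 replicate, with normexp or without the signal filter. GBF4, a G-box binding factor, changed by -0.31 on the log2 scale (limma adjusted P = 0.0200), and AT5G44080 (bZIP13) by -0.28 (limma adjusted P = 0.0357). AT5G44080 has 2 probes and GBF4 1. The count of lower genes was also 1 with the mean over probes, with the probe of lowest signal and with normexp fitted without flagged spots. FD, the partner of the flowering signal FT, was well above background on all arrays but under the signal filter, with levels of -6.06 and -5.96 in Col-0 and of -6.19 and -6.13 in sahy9-1. The remaining 2, bZIP15 and bZIP27, were not well above background on any array.

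The list of kinases and phosphatases known to act on these bZIP proteins held 11 genes. Of these 3 were up-regulated, 2 were down-regulated and 6 did not pass the test, a share called near the 49.4% of all genes tested. Without either single sahy9-1 replicate 1 was higher and 0 were lower, and with normexp 0 passed in either direction. The median log2 fold change of the list was 0.038. OST1 (SnRK2.6), the ABA-activated kinase of guard cells, fell by 0.51 on the log2 scale (limma adjusted P = 0.0125). Its relatives SnRK2.2 and SnRK2.3 had log2 fold changes of -0.10 and 0.038, neither past the test. The calcium-dependent kinases CPK4 and CPK11 both phosphorylate ABF1 and ABF4, and their transcripts went in opposite directions, with log2 fold changes of 0.56 and -0.41. FYPP1, a catalytic subunit of the phosphatase that acts on ABI5, rose by 0.58 (limma adjusted P = 0.00429), and BIN2, a kinase of brassinosteroid signaling, by 0.23 (limma adjusted P = 0.0339).

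Of the ABI5-binding proteins (AFPs), which hold back ABI5, AFP1, AFP2 and AFP3 were down-regulated, and the decreases of AFP1 and AFP3 were larger than that of ABF2, a difference that was not tested. AFP1 had levels of 1.15 and 0.69 in Col-0 and of -1.01 and -1.33 in sahy9-1. AFP1 thus decreased 4.27-fold (log2 fold change -2.09 with a standard error of 0.19, limma adjusted P = 0.00353). AFP3 went from levels of 2.01 and 1.80 to 0.39 and 0.23, a 3.03-fold decrease (limma adjusted P = 0.00211), and AFP2 fell 1.44-fold (limma adjusted P = 0.00738). AFP4, whose replicates were far apart, had a log2 fold change of -0.18 that did not pass. AFP1 is among the genes the study chose on these samples, so that its direction is not independent evidence. In this list of 10 ABI5 partners and turnover factors 9 were tested, of which AFP1, AFP2 and AFP3 fell, ABD1 rose and 5 did not pass, where 24% of all genes tested were lower and 25.4% higher. The lower count was 2 without either single sahy9-1 replicate. ABD1, which recruits ABI5 to a CUL4 ubiquitin ligase, rose by 0.35 on the log2 scale (limma adjusted P = 0.0197), a call that was lost without Col-0 replicate 1, without either single sahy9-1 replicate, with normexp and without the filter. KEG, the main ubiquitin ligase for ABI5, had a log2 fold change of 0.023. ABI3, the seed factor that works with ABI5, was under the signal filter and was well above background on 3 of the 4 arrays, with levels of -7.21 and -6.84 in Col-0 and of -6.36 and -5.90 in sahy9-1.

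Of 9 factors that act on the promoters of these genes or with such factors, 8 were tested. Of these 1 rose, 1 fell and 6 did not pass, where 49.4% of all genes tested were called. The shares were not compared by a test. WRKY60, a member of a trio of WRKY repressors in the ABA response, rose by 0.68 on the log2 scale (limma adjusted P = 0.00813). MYB7, a repressor of ABI5, fell by 0.47 (limma adjusted P = 0.0119), a call that was lost without either single sahy9-1 replicate, with normexp and without the filter. HY5, a light-pathway bZIP factor that activates ABI5, had a log2 fold change of -0.21, and FHY3 one of 0.22. WRKY40 had a log2 fold change of 0.51, but its replicates overlapped between the genotypes. BBX21, a B-box protein that keeps HY5 from activating ABI5, had the smallest log2 fold change of the list, -0.021. For ABI4, an ERF-type factor of ABA and sugar responses, 0 of the 4 arrays were well above background.

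Genes known to depend on the ABRE and these factors were mostly down-regulated in sahy9-1. Of 22 such genes all were tested, 17 were lower, 1 was higher and 4 did not pass, and 12 of the 17 fell at least 3-fold. The background for these calls was 24% lower at the adjusted P and 1.59% lower at 3-fold over all genes. The median log2 fold change of the list was -1.71. The study's printed list of ABA and abiotic stress transcripts, chosen on these same samples, holds 10 of the 22. All 10 were at least 3-fold lower, which is not independent evidence of their direction. That list is only a part of the transcripts the study called, so genes not on it may have been called too. Of the 12 not on that transcript list, among which ABI1, RAB18 and LEA7 are on its protein lists, 7 were lower, 1 was higher and 4 did not pass, and the median log2 fold change was -0.92. The list was chosen with earlier results of these data known, so these 12 are not independent evidence either. The 12 genes past 3-fold were RD20, RD29B, TSPO, HAI1, HAI2, EM1, PP2CA, RD29A, RD26, LEA7, ABI2 and SOC1. Their decreases ran from 3.18-fold for SOC1 to 7.21-fold for RD20.

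SOC1, a MADS-box gene of the flowering pathway that ABF3 and ABF4 activate, had levels of 1.42 and 1.16 in Col-0 and of -0.30 and -0.46 in sahy9-1. The change of SOC1 was -1.67 on the log2 scale (limma adjusted P = 0.00243). LEA7, which encodes a late embryogenesis abundant protein, went from 5.48 and 5.16 to 3.97 and 3.14, and its log2 fold change was -1.76 (limma adjusted P = 0.0108). GBF3, a bZIP gene of another group that ABFs induce, went from -0.49 and -0.55 to -1.54 and -1.42, a 1.94-fold decrease (limma adjusted P = 0.00281). All 4 arrays separated by genotype for these genes, as they did for 80.3% of all genes tested.

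Among genes of chlorophyll breakdown that ABFs and ABI5 bind, PAO fell 2.52-fold (limma adjusted P = 0.00840), while NYE1 and NYC1 had log2 fold changes of -0.090 and -0.23 and did not pass. NYE1 had the smallest change of the whole list. EM1 and EM6, a pair of embryo genes used as readouts of ABI5, differed from each other: EM1 had a log2 fold change of -2.13 (limma adjusted P = 0.00481), whereas EM6 had one of -0.35 and its arrays overlapped (limma adjusted P = 0.318). The difference between the pair was not tested. DGAT1, an enzyme of oil synthesis and a target of ABI4 and ABI5, was the gene of the list that rose, by 0.52 on the log2 scale (limma adjusted P = 0.00951), and this call was lost without either single sahy9-1 replicate. Its levels were 0.021 and 0.18 in Col-0 and 0.65 and 0.58 in sahy9-1.

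**Figure D4:**
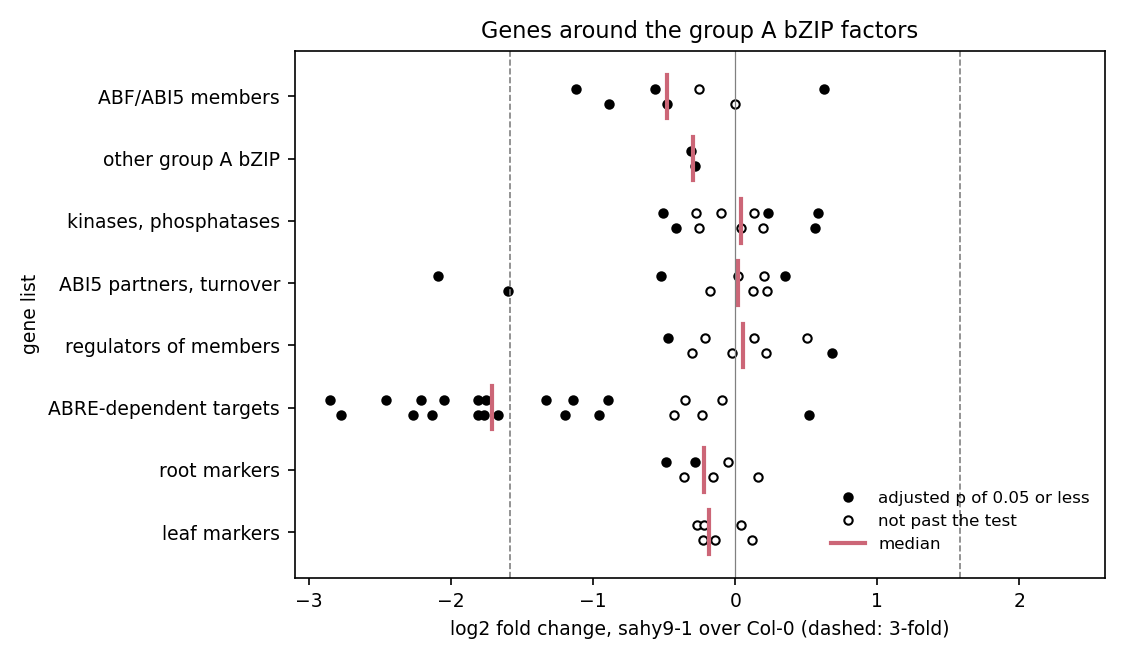
Log2 fold change of sahy9-1 over Col-0 for every tested gene of each list: filled points passed an adjusted P of 0.05 in limma, open points did not, red bars are medians and dashed lines mark 3-fold. Only the ABRE-dependent targets and 2 ABI5 partners (AFP1 and AFP3) have points beyond 3-fold.

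Among the tissue markers set beside these lists, PLT1 and PLT2, regulators of the root meristem, were lower by 0.49 and 0.28 on the log2 scale (limma adjusted P = 0.00941 and 0.0208). PLT1, with intensities of 117 and 102 in Col-0 and of 95.5 and 80.6 in sahy9-1, passed the filter through Col-0 alone. The count of lower root markers was 0 without either single sahy9-1 replicate, 1 without Col-0 replicate 1 and 4 without Col-0 replicate 2. The other 4 root markers did not pass, with the smallest log2 fold change, -0.049, for CASP1 of the endodermis. Of the 6 leaf markers 0 passed in limma, 1 reached an unadjusted P under 0.05 and 0 did by the methods' t-test, and the log2 fold changes ran from -0.27 for the carbonic anhydrase CA1 to 0.12 for MYB60, with the smallest, 0.039, for the guard cell factor FAMA. The part of these markers in the changes of the bZIP genes was not tested.

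**Figure D5:**
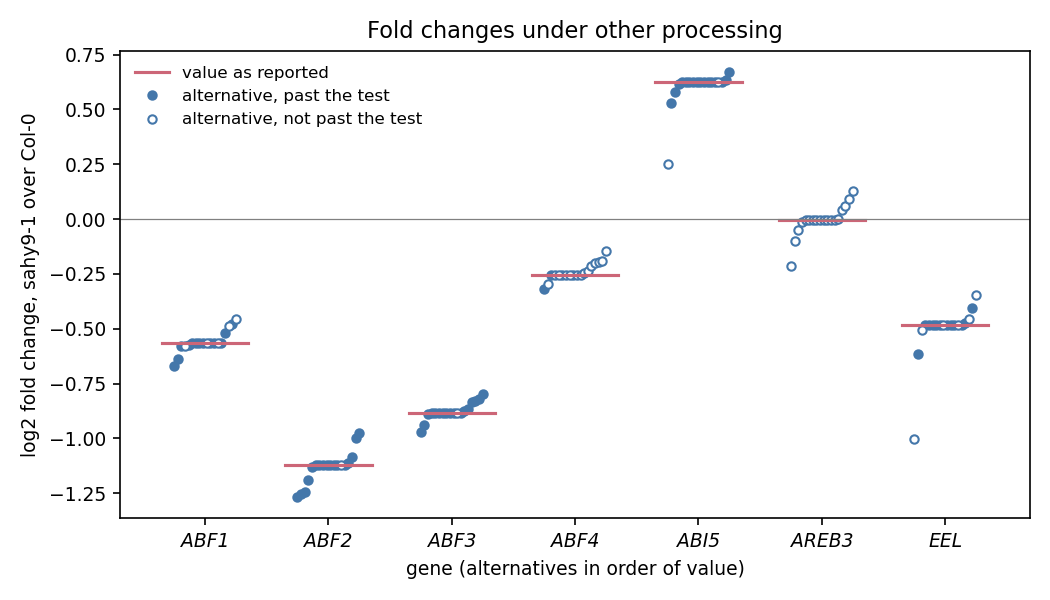
Log2 fold change of each gene under 18 other ways to process the data, in order of value: filled points passed an adjusted P of 0.05, open points did not, and red lines are the values reported here. ABF1, ABF2, ABF3, ABF4 and EEL stay below 0 and ABI5 above 0 in all 18, and AREB3 is found on both sides of 0.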

How the data were processed

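RNA of 2 Col-0 and 2 sahy9-1 samples was measured on 4 one-color Agilent arrays of 1 slide. The authors deposited spot intensities from Agilent Feature Extraction 10.7.1.1 (per the submitters' processing notes), which subtracts the background. The deposited table of log2 values holds the same intensities, scaled to the 75th percentile and centered by the authors on Col-0. It matched the scanner values of the tested genes to within 0.001 in 100% of values, so it served only as an alternative. From the intensities, log2 values minus the 75th percentile of each array were computed in R 4.3.3. Control spots and outlier spots (10 to 13 per array) were left out, the probe of highest mean signal stood for a gene, and genes that reached an intensity of 100 on each array of at least 1 genotype were tested in limma 3.58.1, unpaired. Of 35137 transcript names 26309 matched a TAIR10.1 locus in RefSeq. The rule for genes named in the text took all 8 members with each probe and, from the other lists, the genes past 3-fold and those of largest and smallest change. The other list genes named were chosen after their values were seen. Nearest genes were the 3 of smallest distance to ABI5 and to the member of largest change. The members and lists were chosen with earlier results of these data known. The code was tested on simulated data. The files lack the mean spot signal, so normexp used the median signal. Both normexp alternatives then added an offset of 50 to the signal, which makes the fold changes of dim spots smaller. Nothing in the labels says that a replicate number ties samples across genotypes. With 2 arrays per genotype the number of arrays limits the precision.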

Additional observations from a re-analysis of the deposited data

How the results depend on the processing

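Results were recomputed under 18 alternatives, 2 of them chosen after seeing the data (the probe of lowest signal, and normexp fitted without spots of flagged background). ABF1, ABF2, ABF3, ABF4, ABI5 and EEL kept their direction in all 18, and AREB3 did not. ABF2, ABF3 and ABI5 kept their call in 17, 17 and 16. ABF1 kept its call in 13 and EEL in 12. ABF4 passed in 4: with an intensity trend, with the replicate number as a block, without Col-0 replicate 2 and with the deposited table. The log2 fold change of AREB3 turned positive with the mean over probes (0.061), without Col-0 replicate 1 (0.091), without sahy9-1 replicate 1 (0.042) and with the probe of lowest signal (0.13), never past the test. The log2 fold changes ran from -1.27 to -0.98 for ABF2, from -0.97 to -0.80 for ABF3, from 0.25 to 0.67 for ABI5, from -0.67 to -0.46 for ABF1 and from -1.0 (normexp, limma adjusted P = 0.199) to -0.35 for EEL.

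The count of members past the adjusted P was 2 with normexp, 3 without a signal filter and 0 by the methods' t-test, and 3 to 5 without single replicates, lowest without Col-0 replicate 1. The count of all genes past it was 2756 with normexp, 6580 without a filter and 91 by the t-test, and 4753 to 10043 without single replicates, lowest without sahy9-1 replicate 2. At 3-fold it was 324 with normexp, 465 with normexp fitted without flagged spots, 15 by the t-test (which, adjusted, called 0 genes of every list) and 596 to 851 without single replicates. Normexp moved the median of all genes to -0.10, and on Col-0 replicate 2 its fit set the background mean at -290, where the lowest signal minus background of a spot was -8067. Fitted without flagged spots it called 10744 genes and 5 members. Both normexp versions added an offset of 50 to the signal, and the part of the offset in these counts was not tested. With the replicate number as a block 11842 genes and 6 members passed, ABF4 in addition. Deviations of same-numbered arrays correlated at 0.44, over 2 pairs only. ABI5 and EEL have 1 probe each, and EEL lay close to the filter.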
